A study of Mus musculus with 4 samples.

Results

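Plaur, the mouse gene for the urokinase plasminogen activator receptor (uPAR), was followed across gated subsets of liver cells, 1 gene of the 32285 measured. A single feature, ENSMUSG00000046223, carries that symbol. The annotation of GRCm38 places it on chromosome 7, plus strand, between bases 24462484 and 24475968, and lists it as protein coding with 6 transcripts. Over 70007 kept cells it gave 21138 unique molecular identifiers (UMIs, barcoded copies of single RNA molecules). The data were 4 droplet libraries made from the 5′ end of transcripts, from non-parenchymal liver cells of male C57BL/6J mice that were 8 weeks old at the start. The chow groups received a normal diet, and the MASH groups received the FAT-MASH regimen, a Western diet, sugar in the drinking water and a low dose of the liver toxin carbon tetrachloride (CCl4) injected into the abdomen each week. Livers were collected at 12 and 24 weeks, and all were kept overnight in medium on ice, digested with collagenase IV and DNase I, enriched on a Percoll gradient and cleared of red cells. Each diet and week had 1 library, so no group had a replicate and no test between conditions was made. Intervals below are exact 95% intervals that cover counting error only, and diet, CCl4 and library cannot be told apart. The 12-week MASH matrix was also made with another Cell Ranger version, and its part in the comparisons was not tested.

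uPAR is a protein of the Ly6/uPAR family that is held on the outer cell surface by a lipid anchor. It binds the protease urokinase and so places plasminogen activation at the cell surface, and it also binds vitronectin and works with integrins in adhesion and migration. It is well known on neutrophils, monocytes and macrophages, and in the liver it has been studied in fibrinolysis, repair after injury and fibrosis.

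The 250 bases before the annotated start of Plaur are shown because they hold letters matching motifs of leukocyte and stimulus-responsive transcription factors. The sequence is from the RefSeq annotation of GRCm38.p6, plus strand, chr7:24462233-24462482, written 5′ to 3′, with matches in capitals.
Plaur: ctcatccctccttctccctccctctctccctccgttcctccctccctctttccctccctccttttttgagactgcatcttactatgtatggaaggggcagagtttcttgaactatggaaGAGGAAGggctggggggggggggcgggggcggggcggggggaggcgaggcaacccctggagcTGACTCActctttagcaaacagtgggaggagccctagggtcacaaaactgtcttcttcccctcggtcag
The search covered both strands for 3 motifs. The AP-1 letters TGANTCA matched 69 to 63 bases before the start, and 6.75% of 32851 upstream windows of the same length hold them. The letters GAGGAAG, of the Ets type that PU.1 reads in myeloid and B cells, matched 131 to 125 bases before the start and occur in 10.6% of windows. The κB motif, which occurs in 7.25% of windows, had no match in these letters. The matches do not overlap. A match is a description of the letters and not of binding.

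Cells had at least 500 gene UMIs, at least 300 genes and at most 15% mitochondrial UMIs, and likely doublets were removed by Scrublet, which left 15148 to 20783 cells a library with a median of 1977.5 to 3206 UMIs. Libraries shared 507 to 796 barcodes a pair, beside 501 to 783 expected if barcodes were drawn at random. A cell entered a lineage with at least 3 UMIs from at least 2 of its markers, and 71.7 to 85.5% of cells were gated. Cells positive for several lineages were left out, 6.24 to 14.1% of cells, and they held 10.6 to 27.8% of Plaur UMIs. Names ending in "-like" are these marker gates. Cells carried antibody hashtags whose meaning the labels do not give. The mice behind each library are not identified, so hashtags are not used as replicates. Levels are Plaur UMIs divided by all gene UMIs of a subset and scaled to CPM, the usual per-library unit of expression, and a subset is given where it had at least 50 cells in the library unless its cell number is stated.

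As a share of gene UMIs, neutrophil-like cells had the highest Plaur level and monocyte-like cells came next. Plasmacytoid dendritic cell-like (pDC-like) and B cell-like cells followed, and T and NK cells were among the lowest, with cDC1-like cells. Per cell the order of mature neutrophil-like and classical monocyte-like cells was the other way. The former held 74, 223, 1055 and 925 Plaur UMIs in 104, 188, 1261 and 1072 cells (12-week chow, 12-week MASH, 24-week chow, 24-week MASH). The latter held 384, 675, 308 and 737 in 184, 378, 178 and 522 cells. Their median depths in 12-week chow were 986.5 and 4733 UMIs. Over all kept cells the level was 94.3 CPM in chow and 90.3 CPM in MASH at 12 weeks, and 78.5 and 77.9 CPM at 24 weeks. These whole-library levels were close, while levels within many subsets differed more.

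**Figure D1:**
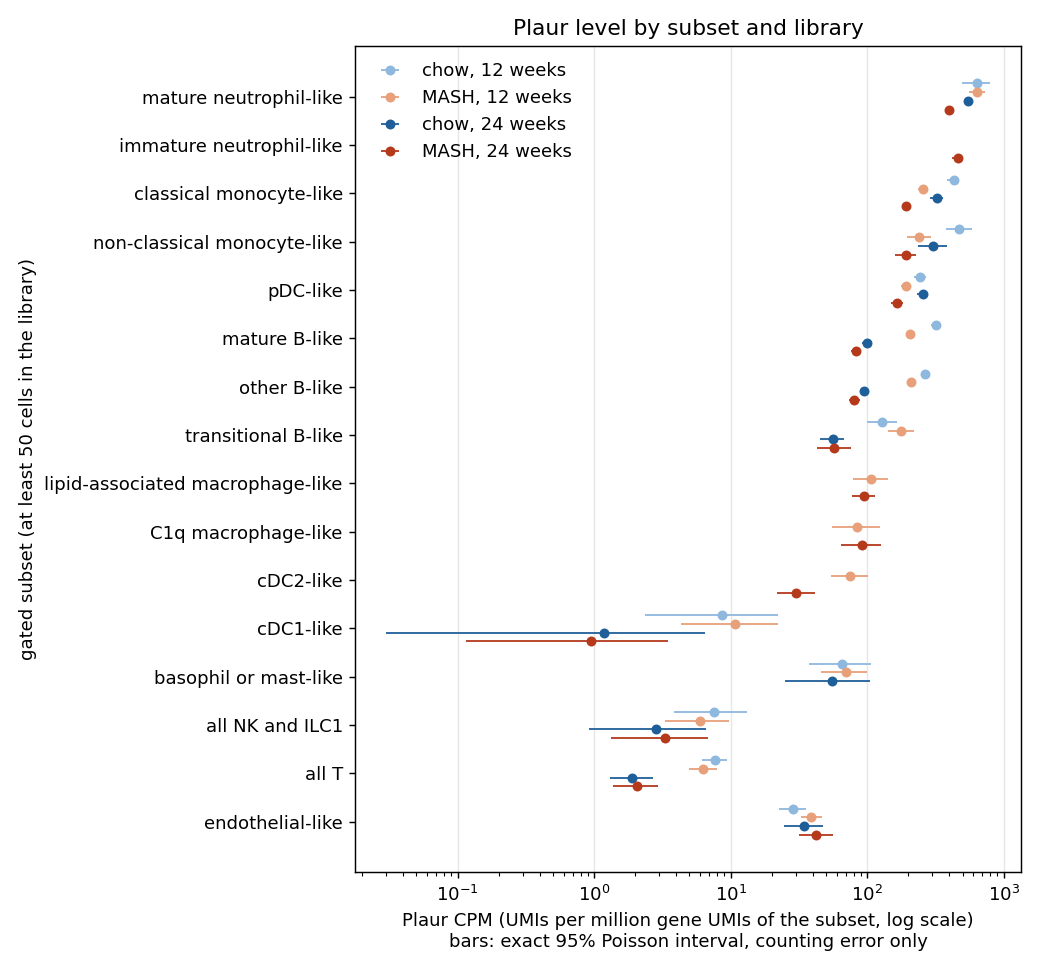
Plaur CPM (log axis) in each gated subset with at least 50 cells, 1 point per library, with bars for the exact 95% Poisson interval. Mature neutrophil-like cells lie at 395 to 643 CPM in the 4 libraries and all T cells at 1.91 to 7.72 CPM.

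Mature neutrophil-like cells, gated on genes such as Csf3r, Cxcr2 and Mmp9, had 636 CPM in chow and 643 CPM in MASH at 12 weeks. At 24 weeks they had 547 CPM in chow and 395 CPM in MASH. The 24-week MASH library was the low one, and its interval of 370 to 421 CPM did not reach those of the other 3 libraries. The 12-week values rest on 104 and 188 cells with 74 and 223 Plaur UMIs, against 1261 and 1072 cells at 24 weeks. Immature neutrophil-like cells, which make the granule proteins Camp, Ngp and Ltf, had 561 CPM in chow and 552 CPM in MASH at 12 weeks, and 509 and 462 CPM at 24 weeks, of which only the last rests on over 50 cells (22, 39, 39 and 158). Immature cells were above mature cells beyond counting error in the 24-week MASH library alone, where the ratio was 1.17, and the ratio was 0.859 to 0.930 in the other 3.

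Classical monocyte-like cells (Ly6c2, Ccr2, Chil3), the inflammatory monocytes of blood, had 430 CPM in chow and 255 CPM in MASH at 12 weeks, and 323 and 193 CPM at 24 weeks. Both MASH libraries were below both chow libraries. Non-classical monocyte-like cells (Ace, Treml4, Cd300e), which patrol vessels, had 473, 240, 303 and 192 CPM in the same order. The 2 kinds of monocyte did not differ beyond counting error in any of the 4 libraries, with ratios of 0.938 to 1.10 of non-classical over classical. Classical monocyte-like cells were below mature neutrophil-like cells in all 4 libraries, at 0.396 to 0.676 of their level.

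Macrophage-like cells had less. Lipid-associated macrophage-like cells (Trem2, Gpnmb), a scar- and fat-associated state, reached 50 cells in the MASH libraries only, with 107 CPM at 12 weeks and 94.4 CPM at 24 weeks, and the 12-week chow library had 8 such cells and the 24-week one 1. C1q macrophage-like cells had 84.7 and 92.1 CPM in the same MASH libraries. Against classical monocyte-like cells of the same library, the lipid-associated gate was at most 0.490 of their level, and lower beyond counting error in 3 of the 4 libraries. Kupffer cell-like cells, the resident macrophages (Clec4f, Vsig4, Timd4), numbered 51 in the 12-week MASH library and 0 to 9 elsewhere. Their 196 CPM rest on 11 of 51 cells, 1 of which held 10 UMIs, and 4.76% of them had a Plaur UMI after thinning to 1000 UMIs a cell.

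Dendritic cells ranged from high levels to the level of T cells. pDC-like cells (Siglech, Ccr9), the interferon-producing dendritic cells, had 246 CPM in chow and 193 CPM in MASH at 12 weeks, and 256 and 166 CPM at 24 weeks. They stayed below classical monocyte-like cells in all 4 libraries, at 0.573 to 0.861 of their level. cDC2-like cells (Cd209a, Clec10a), which present antigen to CD4 T cells, had 75.2 CPM at 12 weeks and 30.4 CPM at 24 weeks in MASH. cDC1-like cells (Xcr1, Clec9a), which cross-present to CD8 T cells, had 8.70, 10.7, 1.18 and 0.956 CPM in the 4 libraries, from 4, 7, 1 and 2 UMIs. The cDC1 level was 0.031 to 0.143 of the cDC2 level, lower beyond counting error in all 4 libraries. In chow the cDC2-like gate had only 17 cells at 12 weeks and 43 at 24 weeks, each with 7 Plaur UMIs. The cDC1 level was within counting error of all T cells in all 4 libraries, at 0.466 to 1.70 of their level. The cDC1-like cells were deep, with a median of 7906 to 13030 UMIs, so depth was not short there.

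B cell-like cells carried a large part of the Plaur UMIs. At 12 weeks they were 4404 of 16244 cells at 270 CPM in chow and 3789 of 15148 at 206 CPM in MASH. At 24 weeks they were 8041 of 20783 cells at 92.4 CPM in chow and 5309 of 17832 at 80.1 CPM in MASH. Together they held 51.7% of Plaur UMIs in 12-week chow, 34.5% in 12-week MASH, 35.1% in 24-week chow and 17.2% in 24-week MASH. Mature B-like cells (Fcer2a, Cr2) had 319 and 207 CPM at 12 weeks and 99.2 and 83.1 CPM at 24 weeks, in chow and MASH. Both 24-week libraries were below both 12-week libraries. Transitional B-like cells (Vpreb3, Cd93), recent arrivals from bone marrow, had 129 and 178 CPM at 12 weeks and 55.9 and 57.6 CPM at 24 weeks. Within a library transitional cells were below mature cells in all 4, at 0.406 to 0.859 of their level, and 3 of the 4 differences were beyond counting error, the exception being 12-week MASH. B cell-like cells outside those gates had 266, 210, 95.4 and 80.8 CPM.

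T cells were used as the low reference. All T cells together had 7.72 and 6.31 CPM at 12 weeks and 1.91 and 2.05 CPM at 24 weeks, and 2.07, 2.34, 0.55 and 0.74% of them had a Plaur UMI at median depths of 2653 to 3575 UMIs. Among T cell subsets naive CD8 T cells in 12-week chow stood highest, at 26.3 CPM from 9 UMIs. NK and ILC1-like cells had 7.5, 5.94, 2.85 and 3.31 CPM, within counting error of the T cells of the same library in all 4. Mature B-like cells were 32.9 to 51.9 times the T cell level in their own library. Basophil or mast-like cells (Mcpt8, Cpa3), at 65.3, 69.6, 55.0 and 52.2 CPM with 46 cells in the last, were 8.46 to 28.8 times it. Endothelial-like cells, at 28.6, 39.0, 34.5 and 42.4 CPM, were 3.71 to 20.6 times it. These 3 subsets were above the T cells of their own library beyond counting error in all 4 libraries.

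In the order of the median over the 4 libraries, the 20 subsets that had 50 cells in every library ran from mature neutrophil-like cells at 591 CPM to cycling T cells at 1.76 CPM. Behind the neutrophils came classical monocyte-like cells at 289, non-classical monocyte-like cells at 271, pDC-like cells at 219, and mature and other B cell-like cells at 153 each. The remaining myeloid cells followed at 98.0, transitional B-like cells at 93.5, endothelial-like cells at 36.8, and then naive CD8 T cells at 7.64. Each pair of neighbours in this order had overlapping ranges over the 4 libraries except transitional B against endothelial and endothelial against naive CD8 T.

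At a matched depth of 1000 UMIs a cell mature neutrophil-like cells again had the highest median, 39.6% of cells with a Plaur UMI over the 4 libraries, and classical monocyte-like cells came second at 23.8%. A Plaur UMI was then found in 52.9, 42.1, 37.1 and 30.02% of mature neutrophil-like cells (12-week chow, 12-week MASH, 24-week chow, 24-week MASH). Many of these cells were too shallow to enter (51 of 104 entered in the first). At full depth 46.2% of the mature neutrophil-like cells of 12-week chow had a Plaur UMI. The share in classical monocyte-like cells was 27.7, 19.8, 28.8 and 17.3%, beside 81.5, 68.3, 70.2 and 58.2% at full depth. It was 20.2, 13.6, 20.2 and 12.4% in pDC-like cells and 26.9, 17.2, 8.998 and 7.62% in mature B-like cells. In all T cells it was 0.83, 0.53, 0.24 and 0.13%, and each of these 4 subsets was above that in every library. No cDC1-like cell had a Plaur UMI at this depth, which with 55 to 150 cells allows a share of up to 2.43 to 6.49%.

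The spread of Plaur among the cells of a subset is given as variance over mean. For the same relative spread this value rises with the mean, so it does not rank subsets that differ in Plaur level. In 12-week chow the mean thinned count was 0.863 in mature neutrophil-like, 0.364 in classical monocyte-like and 0.335 in mature B-like cells. The variance of the thinned counts over their mean, which is 1 for counts with no spread beyond sampling, was 1.53, 1.95, 1.36 and 1.45 in mature neutrophil-like cells and 1.22, 1.40, 1.58 and 1.45 in pDC-like cells. It was 1.08 to 1.14 in mature B-like cells. In classical monocyte-like cells it was 1.21, 0.976, 1.09 and 1.16, and in non-classical ones 0.970, 1.30, 1.30 and 1.12, so the monocyte gates were at the sampling level in some libraries. Single pDC-like cells reached 9, 14, 15 and 17 Plaur UMIs at full depth.

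Plaur was lower in MASH than in chow in both monocyte-like gates, pDC-like cells, mature B-like cells and the remaining B cells at both weeks. Of 20 immune subsets at 12 weeks, 6 were lower beyond counting error and 0 higher, the sixth being the remaining myeloid cells at 0.468 (0.320 to 0.683). Of 19 at 24 weeks, 6 were lower and 0 higher, the sixth being mature neutrophil-like cells. The ratio was below 1 in 13 of the 20 and in 11 of the 19. Several subsets within counting error had few Plaur UMIs, such as ILC1-like cells at 12 weeks, with 4 in MASH and 2 in chow (0.121 to 9.34). Classical monocyte-like cells in MASH had 0.593 of the chow level at 12 weeks (interval 0.522 to 0.674) and 0.597 at 24 weeks (0.522 to 0.684). In non-classical monocyte-like cells it was 0.507 (0.375 to 0.686) and 0.634 (0.470 to 0.863). The pDC-like ratio was 0.784 at 12 weeks (0.686 to 0.897) and 0.649 at 24 weeks (0.563 to 0.747). Over other settings it ranged from 0.685 to 0.868 at 12 weeks and from 0.440 to 0.765 at 24 weeks. The 0.868 was in cells with 1 hashtag, where the 12-week medians over hashtags were 208 CPM in chow and 202 CPM in MASH.

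Mature B-like cells had 0.651 (0.588 to 0.722) of the chow level at 12 weeks and 0.838 (0.748 to 0.938) at 24 weeks, and the remaining B cells 0.791 and 0.847. Transitional B-like cells were at 1.38 (0.983 to 1.94) and 1.03 (0.721 to 1.46), within counting error at both weeks, and over other settings their value ranged from 1.01 to 2.23 at 12 weeks and from 0.634 to 1.69 at 24 weeks. Mature neutrophil-like cells were level at 12 weeks, at 1.01 (0.774 to 1.33), and lower at 24 weeks, at 0.722 (0.660 to 0.790). Per 10000 UMIs of these cells, neutrophil markers at 12 weeks were at 1161 (chow) and 776 (MASH), and those at 24 weeks at 1553 and 972, while myeloid markers were at 27.8 and 50.2, then 34.1 and 58.5. Both marker lists differed between the diets at both weeks, and their part in the neutrophil ratio was not tested. Endothelial-like cells were at 1.36 (1.02 to 1.83) and 1.23 (0.791 to 1.92). T cells were at 0.817 (0.594 to 1.12) and 1.07 (0.628 to 1.84). No difference between subsets in these ratios was tested.

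**Figure D2:**
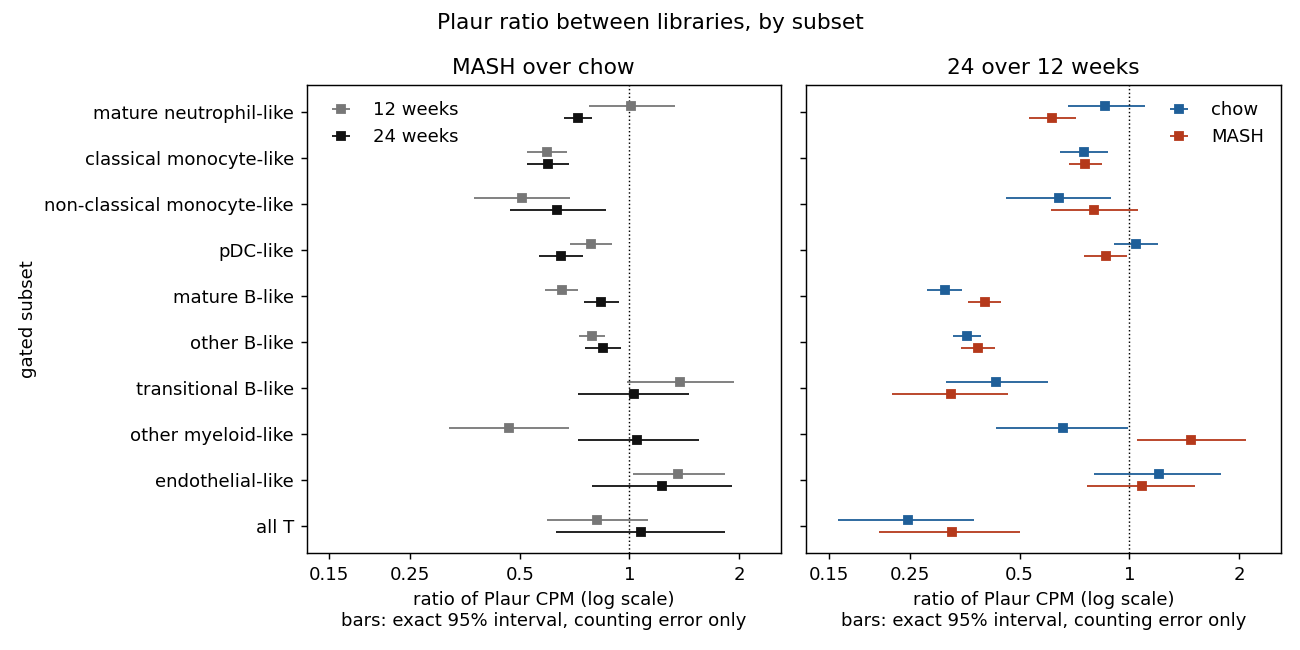
Ratio of Plaur CPM between libraries on a log axis, MASH over chow on the left (12 and 24 weeks) and 24 over 12 weeks on the right (chow and MASH), with exact 95% intervals for counting error. On the left both monocyte-like gates lie below 1 at both weeks, and on the right the B cell gates and all T cells all lie below 1.

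Mature, transitional and remaining B cells had less Plaur at 24 weeks than at 12 weeks in both diets, beyond counting error. The 24-week over 12-week ratio in mature B-like cells was 0.311 (0.278 to 0.349) in chow and 0.401 (0.361 to 0.444) in MASH, and over all B cell-like cells it was 0.342 and 0.390. T cells had lower levels at 24 weeks too, at 0.248 (0.159 to 0.376) in chow and 0.325 (0.206 to 0.503) in MASH, and free RNA in droplets was not measured. What part this has in the B cell result was not tested. Within each library mature B-like cells stood 41.3, 32.9, 51.9 and 40.5 times above T cells, so this ratio was not lower at 24 weeks in either diet.

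pDC-like cells were at 1.04 in chow and 0.861 in MASH. Classical monocyte-like cells were at 0.752 in chow and 0.757 in MASH, but at 0.977 and 0.953 by the mean count after each cell was thinned to 1000 UMIs. The same measure gave 0.756 and 0.683 at 500 UMIs and 0.767 and 0.776 at 2000 UMIs, so the draw at 1000 UMIs stands apart. Mature neutrophil-like cells were at 0.860 and 0.614, and cDC2-like cells in MASH at 0.405. cDC1-like cells in MASH were at 0.0891 (0.0090 to 0.468), from 2 UMIs at 24 weeks and 7 at 12 weeks. Of the immune subsets compared, 9 of 20 in chow and 9 of 22 in MASH were lower at 24 weeks beyond counting error, with 0 and 1 higher, the 1 being the remaining myeloid cells in MASH at 1.48.

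Signs of handling differed between the weeks as well. Immediate early and heat shock genes, a list that rises during tissue dissociation, made up 181 and 156 UMIs per 10000 in mature B-like cells at 12 weeks and 323 and 268 at 24 weeks. In classical monocyte-like cells the values were 105, 109, 284 and 266, and in mature neutrophil-like cells 150, 166, 414 and 301. In pDC-like cells they were 88.3, 89.1, 172 and 140, and in T cells 136, 123, 159 and 157. The list stood higher at 24 weeks in each of these 5 subsets, and its part in the Plaur levels was not tested. Markers of other cell types also differed between libraries. In mature B-like cells neutrophil markers made up 0.127 to 0.633, myeloid markers 0.331 to 1.44 and hepatocyte markers 3.15 to 6.86 UMIs per 10000, with the myeloid ones higher in both MASH libraries. In pDC-like cells myeloid markers made up 5.89 to 13.6. The part of these markers in the Plaur levels was not tested.

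Within a library the hashtags gave a further view of spread. Among cells with 1 hashtag, mature B-like cells ranged over hashtags from 245 to 399 CPM in 12-week chow and 192 to 224 CPM in 12-week MASH, and from 87.4 to 119 and 69.7 to 101 CPM at 24 weeks. The ranges of the 2 weeks did not overlap in either diet, and those of the 2 diets overlapped at 24 weeks. Classical monocyte-like cells ranged from 395 to 452 and 245 to 306 CPM at 12 weeks, and from 210 to 403 and 157 to 277 CPM at 24 weeks, where the diets overlapped. pDC-like cells ranged from 165 to 313, 176 to 217, 195 to 408 and 95.7 to 222 CPM, and the diets overlapped at both weeks. Mature neutrophil-like cells ranged from 476 to 901, 738 to 834, 370 to 686 and 315 to 550 CPM.

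**Figure D3:**
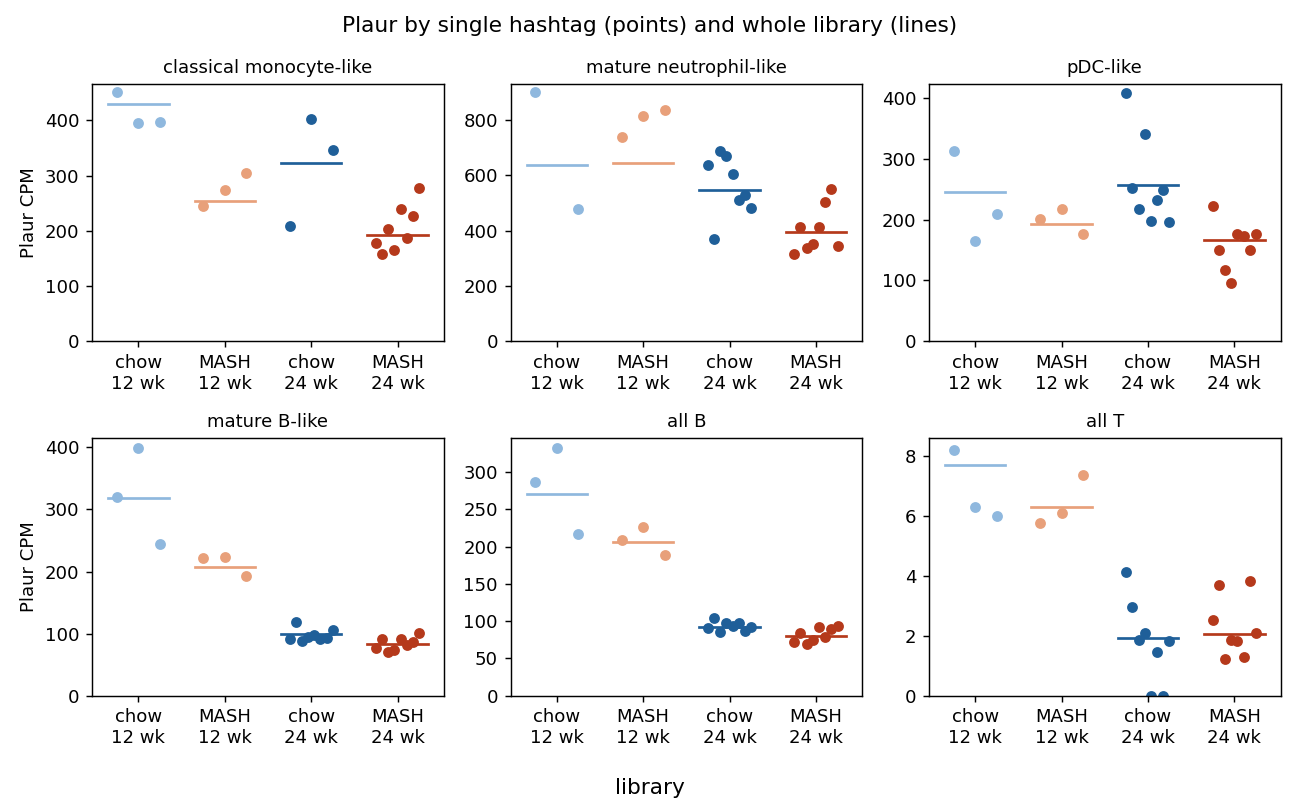
Plaur CPM in 6 cell groups, 1 point per hashtag with at least 20 cells carrying that hashtag alone, with a line for the whole library. The points of mature B-like cells at 24 weeks (69.7 to 119 CPM) lie under all points at 12 weeks (192 to 399 CPM).

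Genes whose level over subsets was most like that of Plaur were found by Spearman correlation of CPM over 99 points, each 1 subset in 1 library. The search covered 14835 genes and 30 gated subsets, which include endothelial-like and other non-immune cells. The points share libraries and cells of a lineage, so the values are a description. The 10 nearest were Zfp608 (0.805), Dok3 (0.800), Lyn (0.799), Atp6v0b (0.795), Atp6ap1 (0.794), Ceacam1 (0.794), Rassf3 (0.778), Syk (0.769), Sgk3 (0.768) and Rhbdf2 (0.768). None is a gate marker. Lyn and Syk are kinases that act at immune receptors, Dok3 is an adaptor, and Atp6v0b and Atp6ap1 belong to the vacuolar proton pump. By Pearson correlation of log2(CPM + 1), 5 of the 10 stayed among the 10 nearest and 9 among the 50 nearest. In single libraries 1 or 2 of the 10 stayed among the nearest 10, and 5 to 8 among the nearest 50, so the group of genes is steadier than the exact ranks.

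The likeness is one of rank over all points and does not hold in each subset. Dok3 in pDC-like cells was at 8.50, 3.57, 3.43 and 9.69 CPM, where Plaur was high, while Lyn there was at 198, 254, 220 and 227 CPM and Syk at 285, 277, 250.3 and 189 CPM. Syk in mature B-like cells was at 624, 638, 611 and 483 CPM, Lyn at 226, 231, 204 and 215 CPM, and Dok3 at 179, 155, 199 and 194 CPM. Their values thus differed less between the 4 libraries than the 319, 207, 99.2 and 83.1 CPM of Plaur. In the remaining T cells Syk was at 10.2 to 22.7 CPM and Dok3 at 2.07 to 4.28 CPM.

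Genes for the ligands and activators of the uPAR system were highest in stellate-like or hepatocyte-like cells. The ligand urokinase (Plau) was highest in stellate-like cells, at 76.4 CPM, and at 0 to 9.16 CPM in classical monocyte-like cells and 0 to 3.84 CPM in mature neutrophil-like cells. The activator tPA (Plat) was also highest in stellate-like cells, at 255 CPM. Plasminogen (Plg) and vitronectin (Vtn), which the liver secretes, were highest in hepatocyte-like cells, at 172 and 560 CPM. Serpinb2, the PAI-2 inhibitor, was the list member of the ligand group that followed Plaur most (0.549). Its level in classical monocyte-like cells was 57.0, 32.1, 37.7 and 20.9 CPM, lower in each MASH library than in the chow library of its week, and it was highest in the Kupffer cell-like gate, at 419 CPM.

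Among clearance and membrane partners, the formyl peptide receptors came nearest to the Plaur pattern, Fpr2 at 0.614 and Fpr1 at 0.489. Fpr1 was highest in mature neutrophil-like cells, at 146, 83.6, 133 and 94.4 CPM. The integrin gene Itgam, a chain of Mac-1, a partner of uPAR, was at 352, 340, 312 and 304 CPM there and at 230, 256, 220 and 213 CPM in classical monocyte-like cells. Itgam in monocytes was as high in the MASH libraries as in the chow ones. Lrp1, which takes up uPAR with its bound inhibitor complexes, was at 319, 312, 267 and 336 CPM in classical monocyte-like cells. Of the plasminogen receptors S100a10 ran against Plaur, with a correlation of -0.637. In the Ly6/uPAR family Cd177 was at 200, 118, 174 and 108 CPM in classical monocyte-like cells, lower in MASH than in chow at both weeks.

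**Figure D4:**
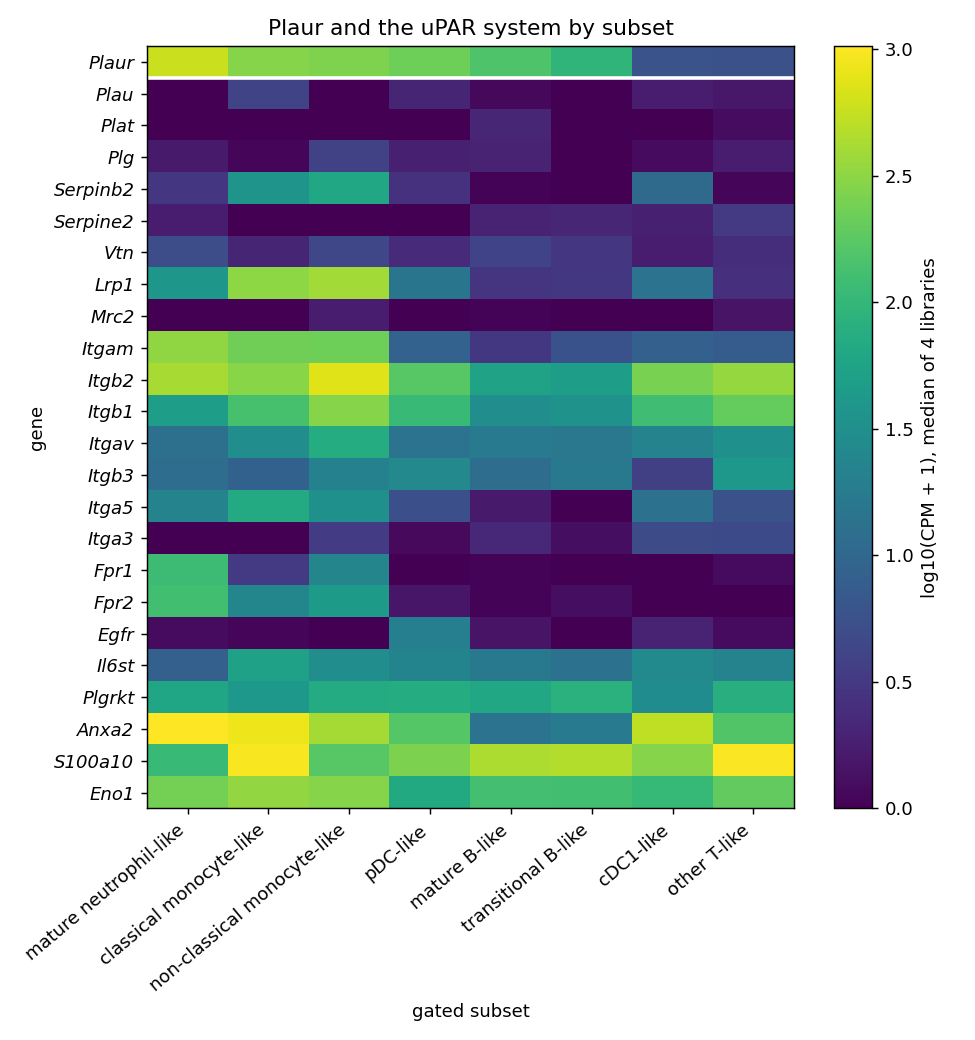
Heat map of log10(CPM + 1), as the median of the 4 libraries, for Plaur (top row) and genes of the uPAR system and plasminogen receptors over 8 gated subsets. Plaur is brightest in mature neutrophil-like and monocyte-like cells, and Plau is dark in all 8 subsets.

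Within a subset, cells with a Plaur UMI were compared with cells without one after every cell was thinned to 1000 UMIs. Cells with Plaur are here cells with a UMI left after thinning, and cells without could hold Plaur at full depth. In 12-week chow 150 of 184 classical monocyte-like cells had a Plaur UMI at full depth, and 51 after thinning. The split thus rests in part on the draw, and a count of 0 does not show that no gene varies with Plaur. A gene counted when its share of UMIs differed by at least 1.5-fold the same way in each of the 4 libraries, with no test. By this rule 0 of 763 genes were higher and 0 lower in classical monocyte-like cells with Plaur (0% of genes each way), from 51, 75, 51 and 90 cells with a UMI. The counts were also 0 of 223 in mature neutrophil-like cells, 0 of 1422 in pDC-like cells and 0 of 1112 in both monocyte gates together (0% each way). Mature B-like cells had 0 higher and 4 lower of 3924 genes (0.102%), and all B cells 0 higher and 5 lower of 7437 (0.0672%). The 4 were Igkv3-1, Iglv2, Phf8 and Socs1, and the 5 were Igkv4-58, Igkv3-1, Coq7, Ptpmt1 and Telo2, all with few UMIs. Transitional B, non-classical monocyte, lipid-associated macrophage, cDC2 and basophil gates had under 20 cells with a UMI in some library and were not compared.

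Lists chosen for this comparison, of NF-κB and inflammatory genes, interferon response, hypoxia, migration, B cell activation, senescence and handling, had 0 genes past the fold in any gate at 1000 UMIs. Many members had too few UMIs to be compared. In classical monocyte-like cells 6 of 14 inflammatory, 2 of 11 interferon, 1 of 10 hypoxia and 1 of 10 senescence genes were compared. The same lists had 10, 4, 7 and 5 genes compared in all B cells. In mature neutrophil-like cells 3 inflammatory genes were, and none of the other 3 lists. At 2000 UMIs in 1 draw Ccl4, a chemokine of the inflammatory list, passed in pDC-like cells at 1.52, 1.51, 2.13 and 2.41, and it did not pass as the median of 20 draws. Isg15, of the interferon list, was lower past the fold in all B cells as the median of 20 draws at 2000 UMIs. The median ratio of the 6 inflammatory genes tested in classical monocyte-like cells was 1.15, beside 0.992 for all genes tested. Its members went both ways, with Cxcl2 above 1 in all 4 libraries (1.82, 1.08, 1.47 and 2.51) and Ccl4 below 1 in all 4 (0.95, 0.88, 0.57 and 0.77). In all B cells, 4 of 9 activation genes tested were above 1 in each of the 4 libraries, beside 5.76% of all genes. These were Cd86, a costimulatory ligand (1.23, 1.29, 1.46 and 1.10), Cd83 (1.19, 1.10, 1.27 and 1.03), and the early response genes Nr4a1 (1.29, 1.24, 1.13 and 1.07) and Egr2 (1.08, 1.07, 1.12 and 1.15). All 4 genes stayed below the 1.5-fold rule. Their ratios are from 1 draw at 1000 UMIs and come as near to 1 as 1.03, so no link with activation is drawn from them. In mature B-like cells alone 1 of 6 activation genes tested, Cd83, was above 1 in all 4 libraries, and Cd86 was at 0.67 in 12-week MASH. Hepatocyte markers per thinned cell of all B cells were 0.449, 0.231, 0.660 and 0.265 in cells with Plaur and 0.403, 0.309, 0.761 and 0.379 in cells without.

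Thinned counts depend on the draw of UMIs, so the comparison was repeated as the median of 20 draws at 2000 UMIs, an alternative added after seeing the data. Classical monocyte-like cells then had 0 higher and 4 lower of 1554 genes (0.257%), which were all genes of MHC class II, the system that presents antigen to CD4 T cells. H2-Aa stood at 0.39, 0.58, 0.44 and 0.55 in cells with Plaur against cells without, H2-Ab1 at 0.47, 0.56, 0.48 and 0.54, H2-Eb1 at 0.51, 0.52, 0.48 and 0.51, and H2-DMb1 at 0.50, 0.63, 0.52 and 0.63. The class II chaperone Cd74 missed the rule at 0.47, 0.59, 0.72 and 0.60. Single draws of H2-Aa ran from 0.18 to 1.14 over the libraries, and those of H2-Ab1 from 0.15 to 1.76. H2-Eb1 ran from 0.17 to 1.51 and H2-DMb1 from 0.27 to 1.48. Draws above 1 occurred in 24-week chow alone. Both monocyte gates together had 3 lower of 2040 genes (0.147%), H2-Aa, H2-Ab1 and H2-Eb1. H2-Ab1 is part of the dendritic cell gates, and cells that met both a monocyte and a dendritic cell gate had been left out.

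To give levels for the same pattern, classical monocyte-like cells were split by class II, at 5 or more UMIs of H2-Ab1, H2-Aa and H2-Eb1 after thinning to 2000 UMIs, with Plaur read at full depth. The split uses the same cells and genes that prompted it, so it describes the pattern and is no independent support for it. The class II-high cells were 19, 51, 22 and 108, or 10.6, 13.7, 12.5 and 21.5% of the gate, and held 88.6 to 95.4% of its class II UMIs. Plaur in them was at 210, 196, 240 and 155 CPM, against 458, 262, 336 and 200 CPM in class II-low cells. The ratios of high to low were 0.46 (0.29 to 0.70), 0.75 (0.56 to 0.97), 0.72 (0.47 to 1.06) and 0.77 (0.62 to 0.95). The class II-high cells had fewer classical markers, 3.53 to 5.41 UMIs a cell against 6.71 to 9.67, and more C1q, 0.55 to 1.37 against 0.01 to 0.65. cDC2 markers were at 0.26 to 0.47 against 0.22 to 0.31 UMIs a cell, and their part in the difference was not tested.

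Without the class II-high cells, MASH over chow in classical monocyte-like cells was 0.572 at 12 weeks (0.501 to 0.654) and 0.596 at 24 weeks (0.517 to 0.689), as low as in the whole gate. In class II-low non-classical monocyte-like cells it was 0.632 (0.438 to 0.918) and 0.708 (0.493 to 1.02). In that gate the class II-high cells were 11, 18, 3 and 55 (12-week chow, 12-week MASH, 24-week chow, 24-week MASH). Their Plaur ratios of high to low were 0.95 (0.53 to 1.64), 0.49 (0.28 to 0.83), 0.51 (0.06 to 1.93) and 0.65 (0.44 to 0.95).

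**Figure D5:**
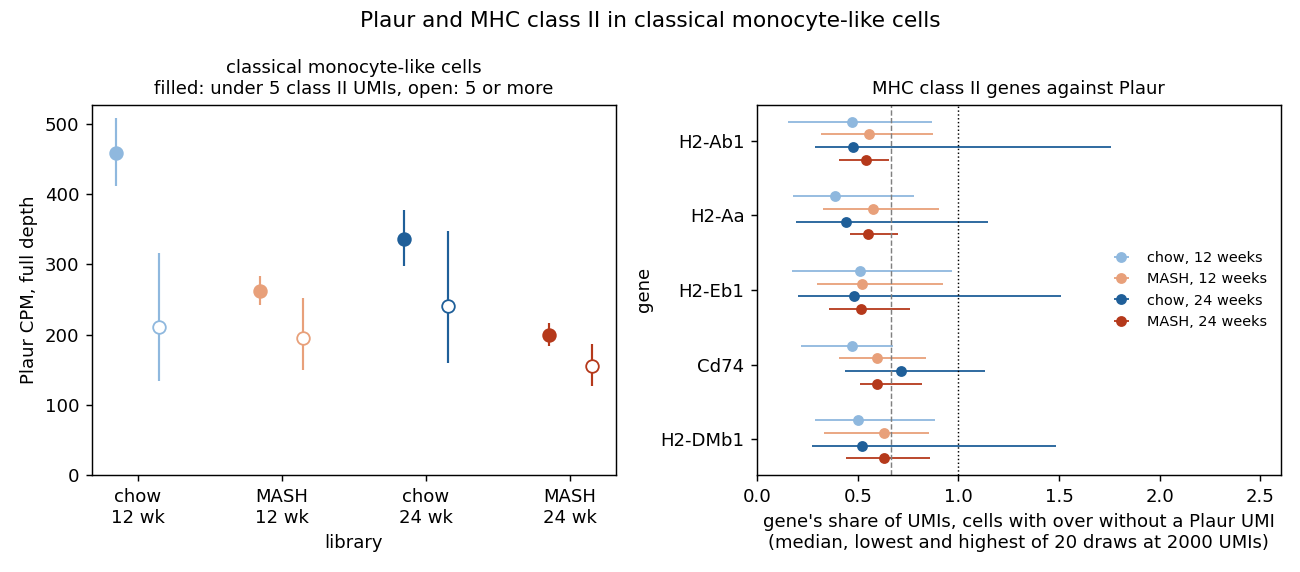
Left, Plaur CPM of classical monocyte-like cells under 5 class II UMIs (filled) and with 5 or more (open) in each library, with exact 95% Poisson intervals. Right, the ratio of 5 class II genes between cells with and without a Plaur UMI, as the median with the lowest and highest of 20 draws, with a dashed line at the 1.5-fold rule and a dotted one at 1. The medians of all 5 genes lie below 1 in all 4 libraries.

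In the other gates the same 20-draw comparison gave small counts. pDC-like cells had 4 higher and 0 lower of 2831 genes (0.141%). Among them were the tetraspanin Cd82 (1.57, 1.77, 1.66 and 1.59), Hsd11b1, which makes active glucocorticoid (1.60, 1.83, 2.18 and 2.65) and the light chain gene Iglc2 (2.07, 1.51, 2.92 and 2.69). As the median of 20 draws at 1000 UMIs, 0 of 1471 genes passed in pDC-like cells. In cells thinned to 1000 UMIs, myeloid markers were at 1.14, 1.27, 0.625 and 1.05 UMIs per pDC-like cell with Plaur. They were at 0.677, 0.694, 0.556 and 0.924 in cells without, and their part was not tested. Mature B-like cells had 0 higher and 1 lower of 3416 genes (0.0293%), Gstm1. All B cells had 0 higher and 7 lower of 6588 genes (0.106%). Among the 7 were Sox4, a factor of early B cells (0.28, 0.31, 0.51 and 0.27), complement properdin Cfp (0.22, 0.48, 0.33 and 0.35), the IgA heavy chain Igha (0.65, 0.62, 0.62 and 0.50) and the interferon-induced Isg15 (0.44, 0.60, 0.66 and 0.55). The other 3 were Akap12, Bhmt and Rgn. The comparison over all B cells mixes transitional with mature cells, whose Plaur levels differed.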

How the data were processed

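The authors deposited matrices of whole-number UMI counts per gene and cell barcode, with antibody hashtag counts, made with Cell Ranger, per the file headers version 5.0.1 for 3 libraries and version 4 for MASH at 12 weeks. The builds mm10 and GRCh38 are named in the submitters' processing notes. The deposited feature tables (unit: other, gene names and types) gave the symbols. The 12-week MASH matrix holds 737280 columns, and its 19014 listed barcodes do not match them in number, so its 19091 columns with at least 500 UMIs entered the filter. Scrublet at its automatic threshold removed 11.9, 12.1, 23.8 and 10.6% of cells (12-week chow, 12-week MASH, 24-week chow, 24-week MASH). Of cells with several hashtags, 20.4 to 27.8% of a library, it took 24.8 to 55.6%. Kept libraries held 42988990 to 87193629 gene UMIs.

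Levels are summed Plaur counts over summed gene counts (CPM) with exact Poisson intervals. Ratios have exact intervals conditional on both counts, and shares have exact binomial (Clopper-Pearson) intervals. Each cell was also thinned at random to 1000 UMIs, leaving out shallower cells. The text names Plaur in every subset, the 10 genes most like it among those with at least 10 CPM in a subset, and up to 5 genes called within a subset in each direction, and a few genes of these sets are not reported here. A gene needed 30 thinned UMIs in each library. The computations were tested on simulated data. The gene, gates, lists and comparisons were chosen with earlier results of these data known. Python 3.11.15, numpy 2.4.6, pandas 2.3.3, scipy 1.17.1 and scanpy 1.11.5 were used. No test between conditions was made, since no group had a replicate.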

Additional observations from a re-analysis of the deposited data

Results flagged for a closer look

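Myeloid cells outside the named gates moved in opposite directions between weeks. Their Plaur ratio of 24 over 12 weeks was 0.656 in chow, from 146 to 95.6 CPM, and 1.48 in MASH, from 68.1 to 100.4 CPM. The difference between the diets was not tested. These cells numbered 96 and 92 in chow and 195 and 233 in MASH, and they are a remainder that may differ in makeup between libraries.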

How the results depend on the processing

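Of 212 alternative values of the ratios between libraries, 191 moved by less than counting error, 21 moved further and 0 reversed a direction called beyond counting error. The classical monocyte-like MASH over chow ratio ranged from 0.583 to 0.639 at 12 weeks and from 0.568 to 0.644 at 24 weeks over its alternatives. At 24 weeks the mature neutrophil-like ratio was 0.809 as a mean of per-cell CPM, 0.790 when thinned to 1000 UMIs and 0.642 with T-positive cells kept. Thinned to 500 UMIs, the pDC-like ratio was 0.685 at 12 weeks and 0.440 at 24 weeks, and the mature B-like ratio was 0.562 at 12 weeks. Against 24-week chow cells of hashtags 1 to 4 or 5 to 8, a split added after seeing the data, the pDC-like ratio was 0.551 or 0.765. The cause of these shifts was not tested. Counts of genes that varied with Plaur changed more. With 1 draw at 2000 UMIs they were 5 in classical monocyte-like, 2 in mature B-like, 4 in pDC-like, 8 in all B and 4 in all monocyte-like cells. The median of 20 draws at 1000 UMIs gave 1, 0 and 1 in classical monocyte-like, mature B-like and all monocyte-like cells, and at 2000 UMIs 4, 1 and 3. It gave 0 in pDC-like and 6 in all B cells at 1000 UMIs, and 4 and 7 at 2000 UMIs. A 2-fold rule left 1 in mature B-like and 2 in all B cells, and without doublet removal there were 7, 9 and 1 in mature B-like, all B and pDC-like cells. Leaving out a library asks for agreement in 3 libraries instead of 4, and the counts ranged from 1 to 2 in classical monocyte-like, 0 to 5 in mature neutrophil-like, 6 to 8 in pDC-like and 0 to 7 in all monocyte-like cells. Without 12-week chow, 12-week MASH, 24-week chow or 24-week MASH they were 33, 22, 13 and 13 in mature B-like and 45, 43, 30 and 21 in all B cells. No paired analysis was made, since each diet and week has 1 library. With 1 library a group, depth bounds only the counting error, and the spread between mice is not measured.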
